A study of Mus musculus with 12 samples.

Results

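The 10 genes described here are BCL2 family genes, chosen by symbol from a hippocampal transcript panel of 756 genes: the survival genes Bcl2, Bcl2l1 and Bcl2a1a, the effectors Bax, Bak1 and Bok, and the BH3-only genes Bcl2l11, Bbc3, Bid and Bad. All 10 were in the table, and all 10 were among the 695 genes tested, those averaging 20 or more normalized counts over the mice. RNA of 12 mouse hippocampi was measured on a NanoString nCounter panel for mouse neuroinflammation, an assay that counts colour-coded probes bound to each transcript, with no amplification step. 3 groups of 4 mice were compared. The first was 5xFAD mice given TPPU at 3 mg/kg in drinking water, starting at 2 months of age and lasting 2.5 months, dissolved in 1% polyethylene glycol. The second was 5xFAD mice given the same polyethylene glycol as vehicle, and the third was non-transgenic littermates given vehicle. 5xFAD mice carry mutant human transgenes driven by the neuronal Thy1 promoter and develop amyloid plaques. TPPU inhibits soluble epoxide hydrolase. No non-transgenic mice given TPPU are among the groups, so the drug can be compared only within the transgenic genotype.

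BCL2 family proteins decide whether the outer membrane of mitochondria is opened. Bax and Bak1 proteins form the pores, survival proteins such as Bcl2 and Bcl2l1 (Bcl-x) bind and hold them, and BH3-only proteins release or activate them. Once the membrane opens, cytochrome c leaves the mitochondrion and caspases are activated. Much of this control acts on the proteins, by binding, cleavage and phosphorylation, and transcript counts do not show it. Neurons of the adult brain depend mainly on Bcl2l1 for survival, while Bcl2a1a encodes A1, a survival protein of leukocytes that is induced by NF-kB.

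All labels give males, but the Y-linked genes Uty and Kdm5d stood at 14.2 to 33.5 normalized counts in 6 mice, 2 per group, against 306 to 518 in the other 6. Ttr, a choroid plexus transcript, reached 4270 in 5xFAD vehicle mouse 1 and 16461 in non-transgenic mouse 4, against at most 284 elsewhere. Between the genotypes Bcl2a1a was the only 1 of 10 members called on all 12 mice, beside 18.7% of all genes tested called higher, and 1 member was called also when Y-linked level was a term of the fit or when the 2 mice rich in Ttr were left out. The whole numbers behind the values summed to 1050334 to 1314362 per mouse. Whether mice of a group shared a litter or cage is not given, so p-values measure the spread between these mice.

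Of the survival genes, Bcl2a1a was the 1 member with a large change. It stood at 242, 71.5, 535 and 390 normalized counts in TPPU-treated 5xFAD mice, at 405, 528, 911 and 330 in vehicle-treated 5xFAD mice, and at 78.4, 52.6, 52.9 and 80.2 in non-transgenic mice. All vehicle-treated 5xFAD mice thus lay far above the highest non-transgenic mouse, and 3 of the 4 TPPU-treated mice also lay above all non-transgenic mice. TPPU-treated mouse 2 lay within the non-transgenic range. Its value of 71.5 rests on 67 counted probes before scaling by a factor of 1.07. The exact Poisson interval of that unscaled count was 51.9 to 85.1, and it covers counting error only. Bcl2a1a rose 7.68-fold in vehicle-treated 5xFAD over non-transgenic mice (log2 change 2.94, SE 0.53; limma adjusted p = 0.00234), the 8th highest change of 695 genes. In bulk tissue, more cells of a type and more RNA per cell cannot be told apart.

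**Figure D1:**
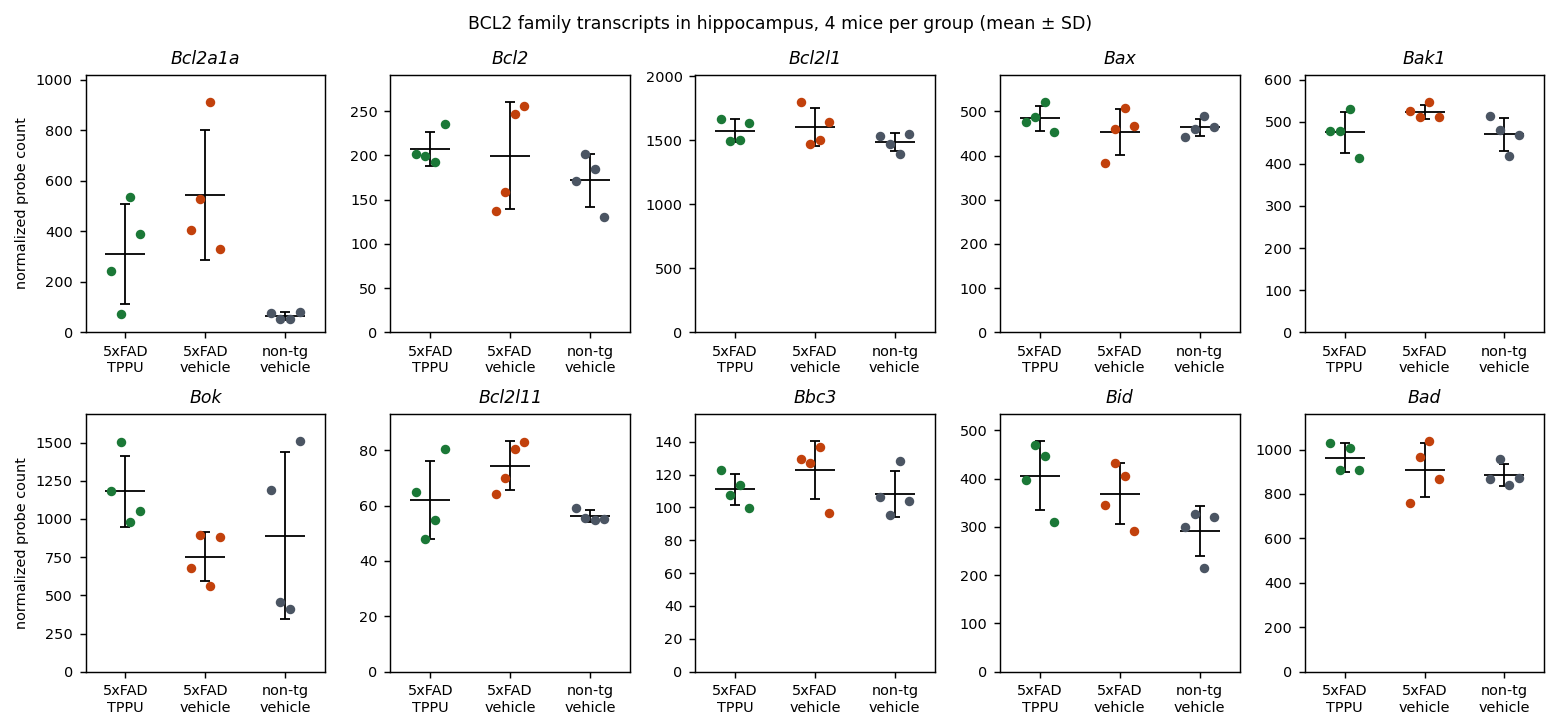
Normalized probe counts (vertical axes, starting at 0 and scaled per gene) of the 10 BCL2 family genes in each mouse, with TPPU-treated 5xFAD mice in green, vehicle-treated 5xFAD mice in orange and non-transgenic mice in grey; bars are the mean ± SD of 4 mice. Bcl2a1a alone sets all vehicle-treated 5xFAD mice far above the non-transgenic mice, and Bok spreads from 409 to 1508 within the non-transgenic group.

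Treatment with TPPU gave no call for Bcl2a1a. Its mean was 310 ± 199 in TPPU-treated and 543 ± 258 in vehicle-treated 5xFAD mice (SD, n = 4 each), a log2 change of -1.03 (SE 0.53; limma adjusted p = 0.325), and the groups overlapped. The 95% confidence interval covered 0.22-fold to 1.08-fold, so both a large decrease and no change lie within it. The size turned on single mice: it was -0.45 without TPPU-treated mouse 2 (limma adjusted p = 0.703) and -1.41 without TPPU-treated mouse 3 (limma adjusted p = 0.108). Against non-transgenic mice, TPPU-treated mice had a log2 change of 1.91 (SE 0.53; limma adjusted p = 0.167). That comparison turned on 1 mouse: without TPPU-treated mouse 2 the change was 2.50 and limma called it (adjusted p = 0.00182). The order of the 3 means was vehicle-treated 5xFAD, then TPPU-treated 5xFAD, then non-transgenic, of which the first and last differed beyond their spread. The TPPU comparisons use the same vehicle-treated or non-transgenic mice as the genotype comparison and are not independent of it.

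The mouse genome holds several copies of Bcl2a1, and the panel has 1 entry, named Bcl2a1a; no other copy is in the table. The sources used here do not say which copies the probe binds, so the values are those of the Bcl2a1a probe. The copies Bcl2a1a, Bcl2a1d and Bcl2a1b all lie on chromosome 9, and their start regions are shown because they are nearly alike. Each is 300 bases long, 250 before and 50 after the transcription start, from RefSeq (GRCm38.p6). They are printed 5′ to 3′ on the gene's own strand: chr9:88956670-88956969 (plus) for Bcl2a1a, chr9:88731801-88732100 (minus) for Bcl2a1d and chr9:89199023-89199322 (plus) for Bcl2a1b. Capitals mark GAGGAA, the purine-rich core read by PU.1, the master regulator of myeloid cells, and TGANTCA, the core read by AP-1, on either strand.
Bcl2a1a: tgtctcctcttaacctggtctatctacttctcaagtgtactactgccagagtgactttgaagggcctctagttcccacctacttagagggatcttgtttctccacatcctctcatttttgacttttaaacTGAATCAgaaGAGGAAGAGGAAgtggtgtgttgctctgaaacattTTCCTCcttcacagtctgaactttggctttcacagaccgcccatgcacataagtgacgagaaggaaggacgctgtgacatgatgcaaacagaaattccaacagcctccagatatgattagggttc
Bcl2a1d: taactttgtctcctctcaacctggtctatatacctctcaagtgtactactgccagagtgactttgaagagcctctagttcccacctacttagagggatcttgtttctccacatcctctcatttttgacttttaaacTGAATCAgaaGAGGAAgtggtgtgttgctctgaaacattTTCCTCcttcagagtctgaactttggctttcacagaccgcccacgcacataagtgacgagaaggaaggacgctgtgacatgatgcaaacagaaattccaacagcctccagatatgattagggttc
Bcl2a1b: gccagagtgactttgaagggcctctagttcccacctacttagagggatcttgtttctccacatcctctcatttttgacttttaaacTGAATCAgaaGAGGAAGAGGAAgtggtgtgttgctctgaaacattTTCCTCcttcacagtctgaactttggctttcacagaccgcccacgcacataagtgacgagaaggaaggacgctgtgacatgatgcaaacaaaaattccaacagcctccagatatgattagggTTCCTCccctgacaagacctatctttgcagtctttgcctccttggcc
Over the aligned bases, Bcl2a1d matched Bcl2a1a at 288 of 294 positions (98.0%, with 6 gap bases) and Bcl2a1b at 254 of 256 (99.2%, no gap); the rest of the Bcl2a1b window lies further downstream and was not aligned. The search also counted the reverse complement. GAGGAA occurred 3 times in the Bcl2a1a window, 2 of them in tandem, 2 times in Bcl2a1d, which has 1 tandem copy fewer, and 4 times in Bcl2a1b. The last match in Bcl2a1b runs past the base at which the Bcl2a1a and Bcl2a1d windows end, so those windows cannot show it. TGANTCA occurred 1 time in each. Of all 32851 start regions of this length, 28.3% held GAGGAA and 7.81% held TGANTCA. The other 9 members have 15 start regions between them, and GAGGAA was found in those of Bcl2, Bak1, Bad and Bid, while TGANTCA was found in none of them. The 10-base NF-kB consensus was not found in the Bcl2a1a window and was found in 8.46% of all. Among the members it was found in 2 of 16 start regions, which belong to Bcl2l1 and Bbc3. These are matches of letters and say nothing of whether a factor binds.

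The 5 genes whose level ran most like that of Bcl2a1a over the 12 mice were all genes of microglia and other myeloid cells. Likeness was measured as the root mean square difference of log2 levels, each gene first centred on its own mean. It was 0.18 for Ccl3, a chemokine, 0.24 for Trem2, a lipid-sensing receptor, 0.27 for Lilrb4a, an inhibitory receptor, 0.27 for Tyrobp, the adaptor of Trem2, and 0.32 for C3ar1, the receptor for complement C3a. The 5 were chosen for likeness over these same 12 mice, so shared high and low mice follow from the choice and add no support. TPPU-treated mouse 2 was lowest of the TPPU-treated mice in each of them, at 33.1 counts for Ccl3 and 346 for Trem2. Vehicle-treated 5xFAD mouse 3 was the highest of all 12 mice in each of the 5, as it was for Bcl2a1a. That mouse also had the highest median over all genes tested, at 481 counts against 331 to 412 in the other mice.

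**Figure D2:**
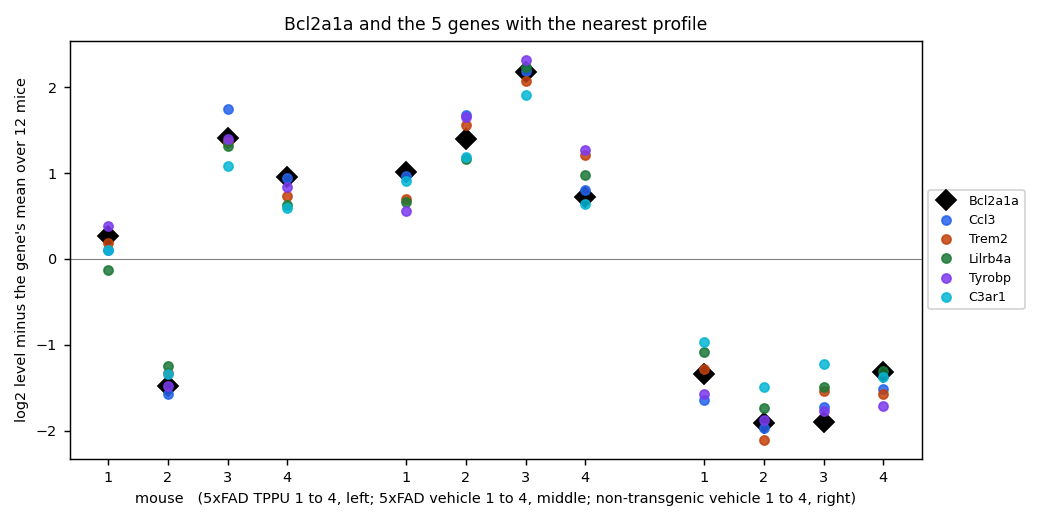
Log2 level minus the gene's own mean over 12 mice (vertical axis) for Bcl2a1a (black diamonds) and the 5 genes with the nearest profile (circles), by mouse, in the order TPPU-treated 5xFAD, vehicle-treated 5xFAD and non-transgenic. All 6 genes are low together in TPPU-treated mouse 2 and in the non-transgenic mice, a likeness for which the 5 were chosen.

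Markers of myeloid cells moved with Bcl2a1a. The myeloid identity list had 7 of its 13 genes in the table, among them Csf1r, on whose signal microglia depend, and Ptprc, which encodes the leukocyte antigen CD45. Their summed level was 1685 to 4318 normalized counts in TPPU-treated 5xFAD mice, 3802 to 6065 in vehicle-treated 5xFAD mice and 1384 to 1782 in non-transgenic mice. Limma called 7 of 7 higher in vehicle-treated 5xFAD than in non-transgenic mice, beside 18.7% of all genes tested. The rise was 5.09-fold for Cd84, a leukocyte adhesion receptor, 3.89-fold for Irf8, a myeloid transcription factor, 3.81-fold for Ptprc, 3.50-fold for Dock2, 3.06-fold for Ncf1, 2.74-fold for Itgam and 2.67-fold for Csf1r. Limma called 0 of the 7 in the other comparisons, and voom weights called 0 genes of the panel there. An unadjusted p under 0.05 was reached by 6 of them between TPPU-treated and vehicle-treated 5xFAD mice, beside 18.1% of all genes, and by 7 between TPPU-treated and non-transgenic mice, beside 14.7%. Of the homeostatic microglia list, 7 of 10 genes were tested, and limma called 5 higher between the genotypes, beside 18.7% of all genes. Fcrls and Sall1 were not called. With TPPU against vehicle, 6 of these 7 had a log2 change below 0 and 1, Fcrls, above 0 (0.30). Neutrophils also make A1, and the list of neutrophils and other immune cells had 12 of 20 genes in the table. They summed to 202 to 414 counts in TPPU-treated, 245 to 566 in vehicle-treated 5xFAD mice, and 159 to 233 in the non-transgenic ones, and none was at 0; the lowest was the B cell marker Ms4a1, at 1.07 to 13.1, 5.52 to 19.0 and 0.896 to 9.54 counts in these 3 groups. Of that list 4 genes were tested, and limma called 1 higher in vehicle-treated 5xFAD than in non-transgenic mice, beside 18.7% of all genes. It was Csf3r, the G-CSF receptor of neutrophils, which microglia also express, and it rose 3.17-fold (limma adjusted p = 0.0395). Csf3r stood at 141, 45.9, 258 and 179 counts in TPPU-treated 5xFAD mice, at 87.9, 261, 381 and 180 in vehicle-treated 5xFAD mice and at 70.6, 64.5, 52.9 and 62.0 in non-transgenic mice. It was the highest of the 12 genes in every mouse, and no other exceeded 52.9 counts, so it weighs most in their sum. Means in vehicle-treated 5xFAD and non-transgenic mice were 19.1 and 11.4 for Ly6g, but 8.95 and 13.4 for Gzma. The part of cell number in the Bcl2a1a change was not tested.

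Set against those 7 myeloid genes within each mouse, Bcl2a1a stood higher in every vehicle-treated 5xFAD mouse than in any non-transgenic mouse. The log2 level of Bcl2a1a minus the mean log2 level of the 7 genes was 0.17, -0.87, 0.47 and 0.54 in TPPU-treated 5xFAD mice. It was 0.25, 0.26, 0.71 and -0.08 in vehicle-treated 5xFAD mice and -0.85, -0.91, -1.15 and -0.56 in non-transgenic mice. All 4 vehicle-treated 5xFAD mice and 3 of 4 TPPU-treated mice lay above all non-transgenic mice. The genotype difference was 1.15 log2 (exact two-sided permutation p = 0.0286, the lowest this design can give, and 0.0857 adjusted over 3 comparisons), so it does not pass after adjustment. TPPU-treated mice differed from vehicle-treated 5xFAD mice by -0.21 (exact permutation p = 0.714, adjusted 0.714) and from non-transgenic mice by 0.94 (exact permutation p = 0.0857, adjusted 0.129). The scaling of a mouse cancels in such a difference. Its absolute size has no meaning, because probes differ in efficiency, and only shifts between groups can be read. A genotype rise above those of the 7 genes (2.67-fold to 5.09-fold) was not particular to Bcl2a1a (7.68-fold). It was 9.07-fold for Tyrobp, 8.69-fold for Ccl3, 8.04-fold for Trem2, 6.34-fold for Lilrb4a and 5.35-fold for C3ar1, the genes chosen for likeness to Bcl2a1a.

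**Figure D3:**
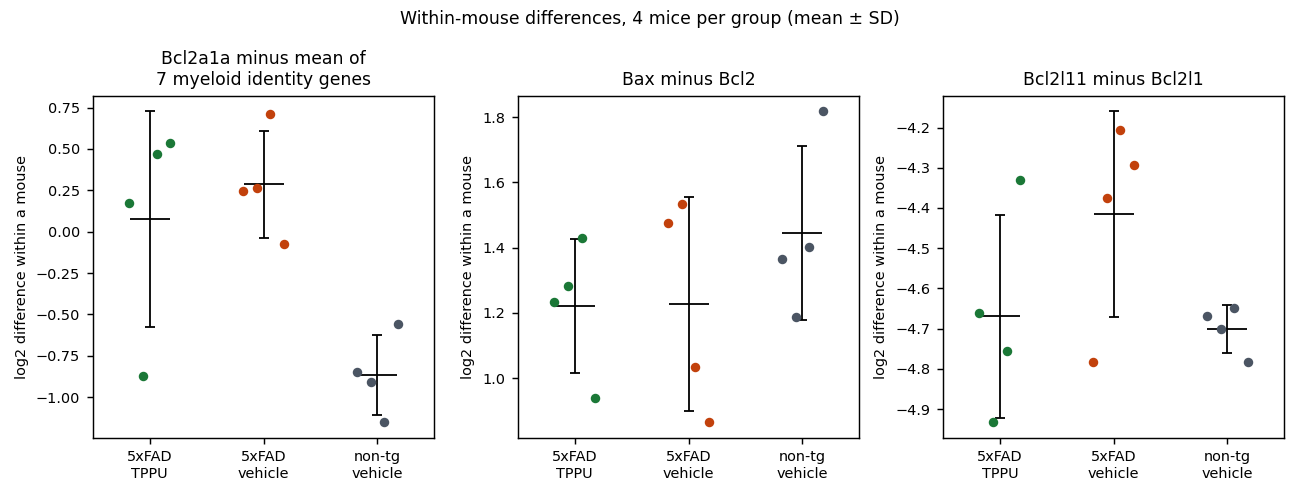
Within-mouse log2 differences (vertical axes) of Bcl2a1a minus the mean of 7 myeloid identity genes, of Bax minus Bcl2 and of Bcl2l11 minus Bcl2l1, by group, with points for mice and bars for the mean ± SD of 4 mice. In the first panel the non-transgenic mice, at -1.15 to -0.56, lie below all vehicle-treated 5xFAD mice, and in the other panels the groups overlap.

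None of the other 9 members was called in any of the 3 comparisons on the deposited scale. Limma called 1 of 10 members higher and 0 lower between vehicle-treated 5xFAD and non-transgenic mice, beside 18.7% of all genes tested higher and 0% lower. An unadjusted p under 0.05 was reached by 2 members, Bcl2a1a and Bcl2l11, beside 29.1% of all genes, and voom weights also gave 1 call. The other 9 members had log2 changes of -0.04 to 0.39 with a median of 0.16, close to the median of 0.13 over all genes tested. Between TPPU-treated and vehicle-treated 5xFAD mice limma called 0 of 10 members, beside 0% of all genes. There 0 members had an unadjusted p under 0.05, beside 18.1% of all genes, and voom weights gave 0 calls. Between TPPU-treated and non-transgenic mice it was again 0 of 10, beside 0% of all genes, with 2 members, Bcl2a1a and Bid, at an unadjusted p under 0.05 beside 14.7%, and 0 calls with voom weights.

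**Figure D4:**
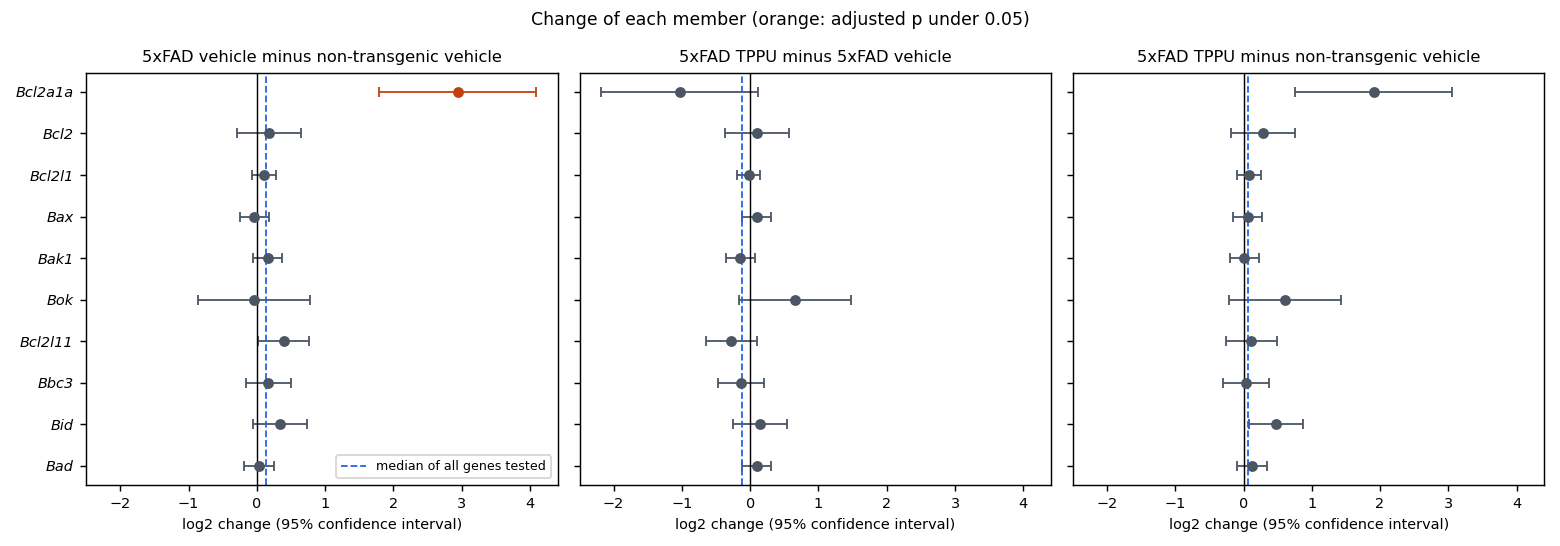
Log2 change (horizontal axes) of each member in the 3 comparisons, with 95% confidence intervals from limma; orange marks an adjusted p under 0.05, and the dashed line the median change of all 695 genes tested. Bcl2a1a in vehicle-treated 5xFAD against non-transgenic mice, at 2.94, is the only orange point, and Bok has the widest interval of the other 9 members.

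Among the other survival genes, Bcl2, the founding member, stood at 201, 200, 193 and 236 normalized counts in TPPU-treated 5xFAD mice. It stood at 137, 158, 247 and 255 in vehicle-treated 5xFAD mice and at 171, 201, 185 and 131 in non-transgenic mice. The vehicle-treated 5xFAD mice fell into a low and a high pair, and all other mice except non-transgenic mouse 4 lay between these pairs. The high pair, mice 3 and 4, are also the vehicle-treated 5xFAD mice with high Uty and Kdm5d, whereas among non-transgenic mice those with high Y-linked levels had the lower Bcl2 values. The part of Y-linked status in these splits was not tested. The log2 change was 0.18 between the genotypes (limma adjusted p = 0.643) and 0.10 with TPPU (0.821). Bcl2l1 had the smallest SE of the members (0.08 on the log2 scale) and stood at 1569 (median) in TPPU-treated 5xFAD, 1574 in vehicle-treated 5xFAD and 1501 in non-transgenic mice, with 1394 the lowest and 1798 the highest single value. Its change between the genotypes was 1.08-fold with a 95% confidence interval of 0.955-fold to 1.21-fold, and with TPPU 0.984-fold with an interval of 0.873-fold to 1.11-fold. Bcl2l2, which encodes the survival protein Bcl-w and is not among the 10, had a log2 change of -0.02 in each of these comparisons.

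Of the pore-forming effectors, Bax stood at 475, 487, 521 and 453 normalized counts in TPPU-treated 5xFAD mice. It stood at 383, 460, 508 and 466 in vehicle-treated 5xFAD mice and at 442, 461, 489 and 464 in non-transgenic mice. The groups overlapped fully, and the lowest value was that of vehicle-treated 5xFAD mouse 1, 1 of the mice with high Ttr. The genotype change was 0.975-fold (95% confidence interval 0.84-fold to 1.13-fold; limma adjusted p = 0.868). Bak1, the partner effector, ranged from 413 to 529 in TPPU-treated 5xFAD, from 510 to 546 in vehicle-treated 5xFAD mice, and from 418 to 514 in the non-transgenic ones. In vehicle-treated 5xFAD mice its coefficient of variation of 3.19% lay below the 4.40% that counting alone gives. Its log2 change was 0.16 between the genotypes (limma adjusted p = 0.319) and -0.15 with TPPU (limma adjusted p = 0.442).

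The balance of Bax to Bcl2, often read as a death-to-survival index, did not separate the groups. Within each mouse the log2 level of Bax minus that of Bcl2 was 1.22 ± 0.21 in TPPU-treated 5xFAD, 1.23 ± 0.33 in vehicle-treated 5xFAD and 1.44 ± 0.27 in non-transgenic mice (SD, n = 4 each). It ranged over 0.94 to 1.43 in TPPU-treated 5xFAD, 0.86 to 1.54 in vehicle-treated 5xFAD mice, and 1.19 to 1.82 in the non-transgenic ones, with overlap in every pair of groups. Bax minus Bcl2l1 overlapped likewise, at -1.85 to -1.53 in TPPU-treated 5xFAD, -2.23 to -1.57 in vehicle-treated 5xFAD mice, and -1.79 to -1.51 in the non-transgenic ones.

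Bok, an effector that the survival proteins do not hold, had the widest relative spread of the 10 members among non-transgenic mice. It stood at 1185, 1504, 982 and 1050 normalized counts in TPPU-treated 5xFAD mice, at 676, 893, 563 and 879 in vehicle-treated 5xFAD mice, and at 1192, 457, 409 and 1508 in non-transgenic mice. All 4 TPPU-treated mice lay above all 4 vehicle-treated 5xFAD mice, as was so for 1 of 10 members and 0.576% of all genes tested; the opposite was so for 0 members and 4.32% of all genes. Non-transgenic mice split into 2 high (mice 1 and 4, which are also the mice with high Uty and Kdm5d) and 2 low, while within the 5xFAD groups Bok did not divide the mice by their Y-linked level. The non-transgenic values had a coefficient of variation of 61.2%, 19.0 times that of counting alone. The log2 change with TPPU was 0.65, the 4th highest of 695 genes, with SE 0.38 and a limma adjusted p of 0.377, so it was not called. Between the genotypes it was -0.04 (SE 0.38; limma adjusted p = 0.963). With only the 2 groups of 5xFAD mice in the fit, the SE was 0.19 and the limma adjusted p 0.326.

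The genes that ran most like Bok were searched for after its values were seen, and all 5 are expressed in neurons. The root mean square difference was 0.34 for Ptgs2, the inducible cyclooxygenase, 0.35 for Nptx1, a secreted synaptic pentraxin, 0.35 for Amigo2, a neuronal adhesion protein, 0.41 for Fgf13, a partner of sodium channels, and 0.41 for Prkce, a protein kinase C. Amigo2 stood at 847, 333, 332 and 1042 in the non-transgenic mice, high and low in the same mice as Bok. Amigo2 also lay higher in all TPPU-treated mice (637 to 911) than in all vehicle-treated 5xFAD mice (489 to 629), with a limma adjusted p of 0.513. It was picked for likeness to Bok over these same mice, so this agreement adds no support. The summed level of 15 neuronal markers was 94452 to 123796 in TPPU-treated 5xFAD, 91483 to 116166 in vehicle-treated 5xFAD mice, and 105346 to 111551 in the non-transgenic ones. Single markers spread more widely: Slc17a6, a vesicular glutamate transporter, stood at 1462, 2719, 2392 and 474 in the non-transgenic mice, low in the mice where Bok was high, and Gria1, a glutamate receptor subunit, at 8245, 4689, 7717 and 11160. The part of neuron content in the Bok values was not tested.

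**Figure D5:**
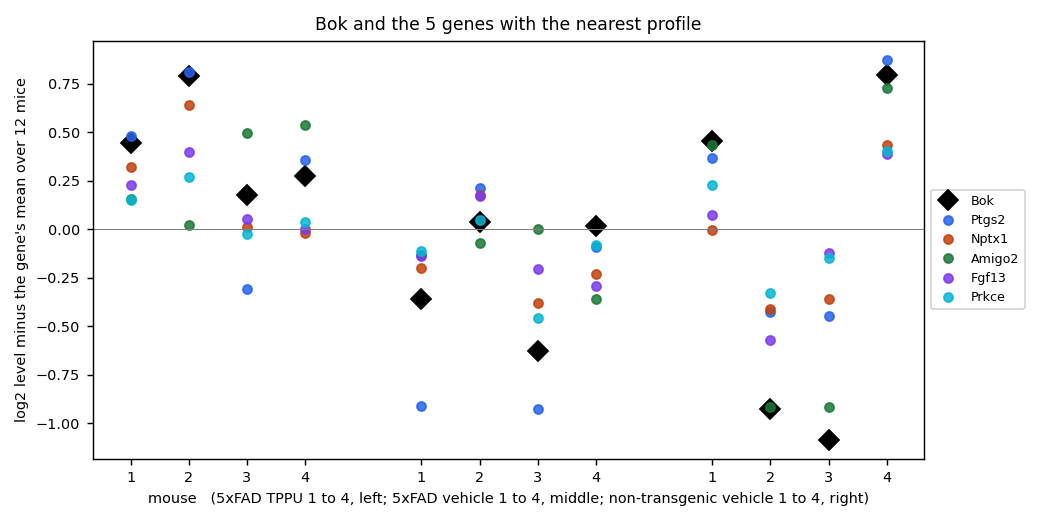
Log2 level minus the gene's own mean over 12 mice (vertical axis) for Bok (black diamonds) and the 5 genes with the nearest profile (circles), by mouse, in the order TPPU-treated 5xFAD, vehicle-treated 5xFAD and non-transgenic. Bok and Amigo2, which was chosen for likeness to Bok, are high in non-transgenic mice 1 and 4 and low in mice 2 and 3.

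Of the BH3-only genes, Bcl2l11, which encodes the broad activator Bim, stood at 65.0, 48.0, 54.7 and 80.3 normalized counts in TPPU-treated 5xFAD mice. It stood at 64.3, 69.97, 80.6 and 82.8 in vehicle-treated 5xFAD mice and at 59.2, 55.6, 54.7 and 55.3 in non-transgenic mice. Between the genotypes its groups did not overlap, as for 2 of 10 members (the other was Bcl2a1a) and for 21.6% of all genes tested in this direction; 0 members and 0.144% of all genes stood apart in the other. The change was 1.31-fold (log2 change 0.39, SE 0.17; limma adjusted p = 0.149) and was not called. With about 60.8 counts per non-transgenic mouse, counting alone gives a coefficient of variation of 12.8%, above the 3.65% seen between those mice. With TPPU the log2 change was -0.28 (limma adjusted p = 0.413). Relative to Bcl2l1 within each mouse, Bcl2l11 ranged from -4.93 to -4.33 log2 in TPPU-treated 5xFAD, from -4.78 to -4.21 in vehicle-treated 5xFAD mice, and from -4.78 to -4.65 in the non-transgenic ones, and all groups overlapped.

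Bid, the BH3-only protein that caspase-8 cleaves to link death receptors to mitochondria, stood at 396, 470, 447 and 310 normalized counts in TPPU-treated 5xFAD mice. It stood at 344, 432, 405 and 291 in vehicle-treated 5xFAD mice and at 300.5, 327, 215 and 321 in non-transgenic mice. Its means thus stood highest in TPPU-treated and lowest in non-transgenic mice, with overlap in each pair of groups. TPPU-treated mice had a 1.40-fold level over non-transgenic mice (log2 change 0.48, SE 0.18; unadjusted p = 0.0215, limma adjusted p = 0.234). Vehicle-treated 5xFAD mice had 1.27-fold over non-transgenic mice (limma adjusted p = 0.24), and TPPU-treated had 1.10-fold over vehicle-treated 5xFAD mice (0.702).

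Bbc3, which encodes the p53-induced protein Puma, ranged from 99.9 to 123 normalized counts in TPPU-treated 5xFAD, from 96.8 to 137 in vehicle-treated 5xFAD mice, and from 95.3 to 128 in the non-transgenic ones. Its genotype change was 1.13-fold (95% confidence interval 0.895-fold to 1.42-fold; limma adjusted p = 0.505). Bad, which growth factor signalling keeps phosphorylated and inactive, ranged from 908 to 1032 in TPPU-treated 5xFAD, from 758 to 1036 in vehicle-treated 5xFAD mice, and from 842 to 959 in the non-transgenic ones. Its genotype change was 1.02-fold (0.875-fold to 1.19-fold; adjusted p = 0.891 by limma). Neither gene set any pair of groups apart. On the deposited scale, changes of 1.5-fold lay outside the genotype intervals of Bbc3, Bad, Bax, Bak1 and Bcl2l1, and inside those of Bcl2, Bcl2l11, Bid and Bok.

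The scale of the arrays bears on the members with small changes. When each mouse was centred on its median, the median genotype change of all genes moved to -0.15, against 0.13 as deposited, and limma called Bax (log2 change -0.32, adjusted p = 0.0264) and Bad (-0.26, adjusted p = 0.0467) lower beside Bcl2a1a higher. After quantile normalization limma called Bax lower (-0.31, adjusted p = 0.0274) and not Bad (-0.24, adjusted p = 0.0553). Of all 695 genes tested, 88 were called lower and 102 higher after median centring, and 104 lower and 80 higher after quantile normalization. On the deposited scale 0 genes were called lower and 130 higher, with Bax at -0.04 and Bad at 0.03. Relative to the array median, Bax and Bad were thus among the 88 genes called lower in vehicle-treated 5xFAD mice. Relative to the housekeeping genes they did not pass the test.

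Genes on either side of the family in the pathway were not called either. In the list of the apoptosome, caspases and their inhibitors, 11 of 16 genes were tested and limma called 0 in each of the 3 comparisons, beside 18.7%, 0% and 0% of all genes. An unadjusted p under 0.05 was reached by 1, 0 and 0 of them, beside 29.1%, 18.1% and 14.7% of all genes. The 1 was Birc3, an inhibitor of apoptosis and NF-kB target, at 40.7, 38.5, 49.7 and 36.9 counts in vehicle-treated 5xFAD mice, against 30.5, 28.8, 17.0 and 33.4 in non-transgenic mice. The groups stood apart, as did those of 21.6% of all genes tested in this direction, and the change was 1.53-fold (limma adjusted p = 0.068). The list's median log2 change was 0.12 between the genotypes and -0.09 with TPPU, beside 0.13 and -0.12 over all genes.

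Upstream regulators had 14 of 23 genes tested and 0 called by limma in each comparison, with 3, 2 and 0 at an unadjusted p under 0.05, beside 29.1%, 18.1% and 14.7% of all genes. Trp53, the gene for p53, which drives Bbc3 and Bax, stood at 327 to 386 in 5xFAD mice on vehicle, against 270.0 to 341 in non-transgenic mice (1.21-fold, limma adjusted p = 0.105). Bdnf, a neuronal survival factor, stood at 817 ± 355 in vehicle-treated 5xFAD and 1237 ± 162 in non-transgenic mice (SD, n = 4 each; limma adjusted p = 0.087). Nfkb1, an NF-kB subunit, stood at 334 to 547 in TPPU-treated and 496 to 629 in vehicle-treated 5xFAD mice (0.783-fold, limma adjusted p = 0.217). Of the other family genes listed, 5 of 14 were in the table and 4 were tested; limma called 0 in each comparison, with 0, 0 and 1 at an unadjusted p under 0.05, beside the same shares of all genes. With voom weights the panel had 128, 0 and 0 calls in the 3 comparisons, beside 130, 0 and 0 by limma on the log2 values. Hrk, a neuronal BH3-only gene, stood at 371 to 496 in TPPU-treated 5xFAD, 333 to 432 in vehicle-treated 5xFAD mice, and 314 to 366 in the non-transgenic ones. All TPPU-treated mice lay above all non-transgenic mice for Hrk, as for 0 of the 10 members and 6.19% of all genes (0.863% stood apart below), with a 1.21-fold change (limma adjusted p = 0.3). The remaining genes with the smallest p in these lists were Bnip3 (log2 change -0.09 between the genotypes and 0.07 with TPPU), Xiap (-0.13 with TPPU), and, in TPPU-treated over non-transgenic mice, Rela (-0.16) and Jun (0.26). Bik, another BH3-only gene, lay under the minimum and was not tested.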

How the data were processed

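RNA of 12 hippocampi was hybridised to a panel of 770 transcripts. Per the labels' protocols, the authors divided nCounter counts by the geometric mean of 10 housekeeping genes, and the deposited signal values are these normalized counts; the sources used here do not name the software or any background subtraction. Divided by a single factor for each mouse, 100% of the values came out whole within 0.01, and these whole numbers give the counting errors and served voom weights, an alternative. Limma 3.58.1 in R 4.3.3 was run on log2(value + 1) of all 12 mice in 1 fit with a variance trend, over genes with a mean of 20 or more, with Benjamini-Hochberg adjustment over 695 genes. A call is an adjusted p under 0.05. Fold changes are on the log2(value + 1) scale, which understates those of low genes. The fit was also run on simulated data, in which genes varied independently within a mouse, and its outcome is not reported here. Within-mouse differences were compared by exact permutation over 70 arrangements. All 10 members are described. Of the lists of other family genes, apoptosome and caspases, and upstream regulators, the rule names genes called, up to 8 by size, or otherwise the 2 with the smallest p in each comparison; 1 such gene is not reported here. Of the marker lists, myeloid identity, homeostatic microglia, neutrophils and other immune cells, and neurons are given by counts, with chosen examples. The oligodendrocyte, astrocyte and endothelial lists are not reported here. The 5 genes nearest to Bcl2a1a, Uty, Kdm5d and Ttr are also named. Members and lists were chosen with earlier results of these data known. Alternatives covered the pseudocount, filter, scaling, blocks, samples in the fit and leaving out mice.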

Additional observations from a re-analysis of the deposited data

How the results depend on the processing

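Bcl2a1a was called higher in vehicle-treated 5xFAD than in non-transgenic mice under every alternative run, at log2 changes of 2.49 to 3.15, and without 1 mouse at 2.66 to 3.14. Between these groups 3 members were called after median centring, beside 102 genes higher and 88 lower of the 695 tested. After quantile normalization 2 members were called, beside 80 genes higher and 104 lower. Against non-transgenic mice, TPPU-treated mice had 0 to 1 members called without 1 mouse, with Bcl2a1a at 1.53 to 2.50; with TPPU against vehicle Bcl2a1a ranged over -1.41 to -0.45 and was not called. Without TPPU mouse 2, which decides that call, the panel had 59 higher and 1 lower genes. Without TPPU mouse 3, 39 genes were called lower against vehicle-treated 5xFAD mice. Other signs that turned belong to small changes. Between the genotypes, median centring and quantile normalization gave -0.10 and -0.39 for Bcl2, -0.18 and -0.11 for Bcl2l1, -0.13 and -0.11 for Bak1, -0.26 and -0.24 for Bad, and -0.11 and -0.49 for Bbc3. Bcl2l11 was -0.31 after quantile normalization. Without the 2 mice rich in Ttr, Bax was 0.044 and Bok 0.33. Between TPPU-treated and vehicle-treated 5xFAD mice, the same scalings gave 0.18 and 0.088 for Bcl2l1, 0.056 and 0.035 for Bak1 and 0.069 and 0.24 for Bbc3. Bcl2l11 was 0.13 after quantile normalization, and without the Ttr-rich mice Bcl2 was -0.060 and Bcl2l1 0.033. Between TPPU-treated and non-transgenic mice, they gave -0.022 and -0.024 for Bax, -0.071 and -0.080 for Bak1 and -0.044 and -0.25 for Bbc3, and quantile normalization gave -0.024 for Bcl2l1 and -0.18 for Bcl2l11. Without 1 mouse, the genotype change ranged over -0.092 to 0.043 for Bax, -0.040 to 0.11 for Bad and -0.34 to 0.29 for Bok. The change with TPPU ranged over -0.060 to 0.24 for Bcl2 and -0.063 to 0.033 for Bcl2l1. That of TPPU-treated over non-transgenic mice ranged over -0.018 to 0.23 for Bcl2l11, -0.044 to 0.076 for Bak1 and -0.021 to 0.12 for Bbc3. The cause was not tested.

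With mouse number as a replicate block, 1 member was called between the genotypes (Bcl2a1a, log2 change 2.94) and 125 genes of the panel, against 130 without it. Same-numbered mice correlated at -0.37 to 0.39 over the 3 comparisons, and the best partner had the same number in 5 of 12. Between TPPU-treated and non-transgenic mice all 4 were positive (0.060 to 0.25), with 1 under the bar of 0.1 for a pairing. The best partner there had the same number for mice 1, 2 and 3, and mice 1 and 4 of both groups had high Y-linked levels. By that bar the numbers were not taken to pair the mice. In that comparison the block gave 0 members called, with Bcl2a1a at 1.91. The difference of Bcl2a1a from the myeloid genes was 1.01 to 1.27 between the genotypes without 1 mouse, where no exact p can reach the threshold. The planned quasi-likelihood tests on counts were not run, because the deposited values are normalized; voom weights, chosen after seeing the data, stood in. Counting error limits Bcl2l11 most, and 8 of 30 member groups spread by under 1.5 times their counting error.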
